A study of Mus musculus with 2 samples.

Results

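The 8 genes described here are 3 Notch receptors (Notch1, Notch2 and Notch3), the ligand Jag1 and 4 target genes (Heyl, Hey1, Hey2 and Hes1). They were taken by name from the 18920 genes present in both libraries of a single-cell RNA study of the mouse aorta, and all 8 were found in both. Cells were taken from the root and the ascending segment of the aorta at 16 weeks of age. One library came from Fbn1C1041G/+ mice given GLPG0187, an inhibitor of the integrin av subunit, daily between 6 and 16 weeks of age, and the other from Fbn1C1041G/+ mice given vehicle. Every animal in both groups carried the same heterozygous missense allele of fibrillin-1, which models Marfan syndrome, and no library of wild-type mice was analysed here. Each group had 1 library, for which aortas of both sexes were pooled, digested with Liberase and elastase, and sorted to remove debris. How many animals made up a pool is not stated. Cells of a library share its animals, so no p-value was computed. The intervals printed below cover counting error only, and both libraries together give the only repeat of a difference between cell classes.

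Notch receptors are membrane proteins that are cut after a ligand on a neighbouring cell binds them. The freed intracellular domain enters the nucleus and joins the DNA-binding protein RBPJ, which switches on target genes such as those of the Hes and Hey families, transcriptional repressors with a basic helix-loop-helix domain. In the vessel wall, Notch3 is known as a receptor of smooth muscle cells and pericytes, Notch1 as a receptor of endothelial cells, and Jag1 as a ligand that links endothelium and smooth muscle.

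The 8 genes lie on 6 chromosomes in the GENCODE M21 annotation of mouse build GRCm38. Notch1 spans 26457903 to 26516663 and Jag1 spans 137081456 to 137116644 on the minus strand of chromosome 2. Notch2 spans 98013527 to 98150361 on the plus strand of chromosome 3, where Hey1 lies at 8663359 to 8667256 on the minus strand. Notch3 spans 32120820 to 32166852 on the minus strand of chromosome 17, and Hey2 spans 30832359 to 30842801 on the minus strand of chromosome 10. Heyl spans 123233556 to 123249875 on the plus strand of chromosome 4, and Hes1 spans 30064384 to 30067796 on the plus strand of chromosome 16. All are annotated as protein coding.

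RefSeq promoters of build GRCm38.p6, each 250 bases before to 50 bases after the annotated start, were at hand for 5 of the 8 genes (Notch1, Notch2, Notch3, Jag1 and Hey2). They were searched on both strands for TGGGAA, the core of the motif bound by RBPJ, which is set in capitals below. The promoters of Hey2 and Notch3 are shown because, of the 5 genes with a window at hand, these are the ones whose highest or next highest class was SMC-like in both libraries. The Hey2 window is chr10:30842734-30843033 and the Notch3 window chr17:32166841-32167140, both read on the minus strand.
Hey2: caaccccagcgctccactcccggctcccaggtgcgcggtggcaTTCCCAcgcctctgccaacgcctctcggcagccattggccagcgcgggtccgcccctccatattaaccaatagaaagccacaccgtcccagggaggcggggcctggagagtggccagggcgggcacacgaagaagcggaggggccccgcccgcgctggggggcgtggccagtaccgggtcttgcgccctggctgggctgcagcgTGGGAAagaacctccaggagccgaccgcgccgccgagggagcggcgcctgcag
Notch3: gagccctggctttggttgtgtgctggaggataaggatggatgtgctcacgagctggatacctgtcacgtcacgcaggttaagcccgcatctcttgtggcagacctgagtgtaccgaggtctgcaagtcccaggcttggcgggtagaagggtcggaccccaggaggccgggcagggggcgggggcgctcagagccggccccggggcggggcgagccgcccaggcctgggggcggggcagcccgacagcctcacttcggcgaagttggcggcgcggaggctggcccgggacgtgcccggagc
Hey2 held 2 matches, a forward one that began 3 bases before the start and a reverse one, TTCCCA, that began 207 bases before it. The other 4 windows held none, while 25.6% of all 32851 promoters of the same length held at least 1. The motif CACNAG, known as the N-box, was found 3 times in Notch1, 2 times in Notch3 and 1 time in Notch2, and stood in 42.5% of all promoters. The motif CANNTG, known as the E-box, was found 1 time each in Jag1 and Hey2 and in 72.3% of all promoters. These matches describe letters in the window, not bound sites.

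There were 4397 cells with GLPG0187 and 2961 with vehicle, of which 4351 and 2947 were used after called doublets were removed. The deposited values are whole numbers, with medians of 14942 and 14806 per cell and of 3773 and 3788 genes detected. No label gives their scale, and they were treated as depth-corrected because the totals of single cells spanned a narrow range. A level below is the mean deposited value per cell, and a share is the percentage of cells with a value above 0. The Notch genes were left out of the clustering, so the classes do not rest on them. Smooth muscle cell (SMC)-like cells numbered 1672 with GLPG0187 and 839 with vehicle, fibroblast-like cells 1049 and 858, endothelial-like cells 162 and 105, macrophage-like cells 343 and 181, Schwann-like cells 19 and 34, and dendritic-like cells 17 and 9. Each of these classes held at least 5 of its fixed markers. No fixed marker list named 2 further clusters, which are called by genes that led them. The Prss35/Tbx20 cluster had 891 and 721 cells and the Chad/Comp cluster 198 and 200. Their summed fibroblast markers were 535 and 511 and 541 and 499, against 470 and 476 in fibroblast-like cells. With a finer clustering, a cluster of 795 cells led by Prg4, Wif1 and Npy, with Tbx20 among its leading genes, was named fibroblast. The split from fibroblast-like cells thus depends on the clustering. The libraries shared 5 barcode sequences.

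Among the receptors, Notch1 was highest in endothelial-like cells in both libraries. Its level in endothelial-like cells was 2.85 with GLPG0187 (79.0% of cells, 95% interval 71.9 to 85.0) and 2.78 with vehicle (81.9%, 73.2 to 88.7). It was lowest in SMC-like cells, with 0.139 (11.7% of cells) and 0.145 (11.7%). In the Prss35/Tbx20 cluster it reached 1.05 (56.5%) with GLPG0187 and 1.45 (69.1%) with vehicle, and in macrophage-like cells 0.621 (38.2%) and 0.646 (43.1%). Schwann-like cells came next to endothelial-like cells, with levels of 2.00 and 2.53, but with 19 and 34 cells their shares ranged from 33.5 to 79.7% and from 27.2 to 62.1% within the counting intervals. The share in SMC-like cells was below that of every other class in both libraries.

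Notch2, a receptor with broad expression, was detected in every class of at least 50 cells. Among those classes it was highest in the Prss35/Tbx20 cluster, at 1.05 (59.3%) with GLPG0187 and 1.12 (63.9%) with vehicle. Dendritic-like cells had 1.18 (76.5% of 17 cells) and 0.556 (33.3% of 9 cells). Macrophage-like, Chad/Comp and fibroblast-like cells had shares between 38.6 and 47.5% in both libraries, and SMC-like cells had 40.6% with GLPG0187 and 38.6% with vehicle. The intervals of neighbours in this middle range overlapped. Endothelial-like cells were low, at 0.296 (15.4%) and 0.190 (11.4%), so the class that was highest for Notch1 was among the lowest for Notch2.

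Notch3 was found mainly in SMC-like and fibroblast-like cells. SMC-like cells had a level of 0.530 with GLPG0187 (37.0% of cells, 34.6 to 39.3) and 0.502 with vehicle (34.0%, 30.8 to 37.3). Fibroblast-like cells had 0.425 (18.5%, 16.2 to 21.0) and 0.593 (23.1%, 20.3 to 26.0). By share SMC-like cells were thus ahead in both libraries, whereas by level the order of these classes turned round between them. In macrophage-like cells, taken as a background class, 1.75% and 1.66% of cells were above 0 at medians of 3179 and 3052 genes detected, against 4030 and 4144 in SMC-like cells. Endothelial-like cells were as low, with 0.617% with GLPG0187 and 4.76% with vehicle.

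Among the classes, the ligand Jag1 was highest in fibroblast-like cells in both libraries. Its level there was 0.875 (46.5%, 43.5 to 49.6) with GLPG0187 and 0.953 (51.0%, 47.6 to 54.4) with vehicle. Endothelial-like cells followed at 0.747 (35.2%) and 0.924 (33.3%), and the Chad/Comp cluster at 0.586 (33.8%) and 0.795 (44.5%). Within endothelial-like cells, a sub-cluster described below had Jag1 levels of 1.47 with GLPG0187 and 2.36 with vehicle, above those of the fibroblast-like class. SMC-like cells had 0.321 (24.8%) and 0.365 (28.8%). Among classes with at least 50 cells the lowest level was that of the Prss35/Tbx20 cluster, at 0.207 (15.8%) and 0.158 (12.9%), the cluster in which Notch2 was highest.

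The targets fell into different patterns. Heyl, a repressor of the Hey family, stood high in the classes that were highest in Notch3. Its level in SMC-like cells was 0.952 with GLPG0187 (53.8%, 51.4 to 56.2) and 0.882 with vehicle (51.4%, 47.9 to 54.8), and in fibroblast-like cells it was 0.942 (41.6%) and 1.45 (55.4%). The Prss35/Tbx20 cluster had 0.357 (23.6%) and 0.506 (28.4%). Endothelial-like cells had 3.70% and 3.81% of cells above 0, and macrophage-like cells 4.96% and 3.87%.

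Hey2, another member of the family, was highest in SMC-like cells among the classes. Its level there was 0.695 with GLPG0187 (48.4%, 46.0 to 50.8) and 0.660 with vehicle (47.7%, 44.2 to 51.1). Endothelial-like cells came next with 0.506 (19.8%) and 0.295 (17.1%), followed by fibroblast-like cells with 0.229 (16.4%) and 0.261 (17.8%), whose intervals overlapped. Within endothelial-like cells, a sub-cluster of 38 and 22 cells described below had Hey2 levels of 1.45 and 1.0, above those of SMC-like cells. Macrophage-like cells had 4.08% and 1.66%. Hey1 was detected in few cells of any class. It was highest in endothelial-like cells, at 0.346 (17.9%, 12.3 to 24.7) and 0.20 (12.4%, 6.76 to 20.2), and the interval of the Prss35/Tbx20 cluster, with 14.9% and 13.9% of cells, overlapped these.

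Hes1, a repressor that many signals besides Notch are known to induce, was detected widely. Its level was 5.42 and 6.35 in Schwann-like cells, 4.15 and 5.25 in endothelial-like cells and 3.46 and 3.45 in the Prss35/Tbx20 cluster, the GLPG0187 value first in each pair. Among the larger classes the lower values were 2.49 and 2.49 in fibroblast-like cells, 1.68 and 1.5 in SMC-like cells, and 0.490 (19.0%) and 0.459 (23.2%) in macrophage-like cells. With dendritic-like cells left out (17 and 9 cells), the highest class was the same in both libraries for 6 of the 8 genes. For Notch3 and Heyl it was SMC-like with GLPG0187 and fibroblast-like with vehicle.

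**Figure D1:**
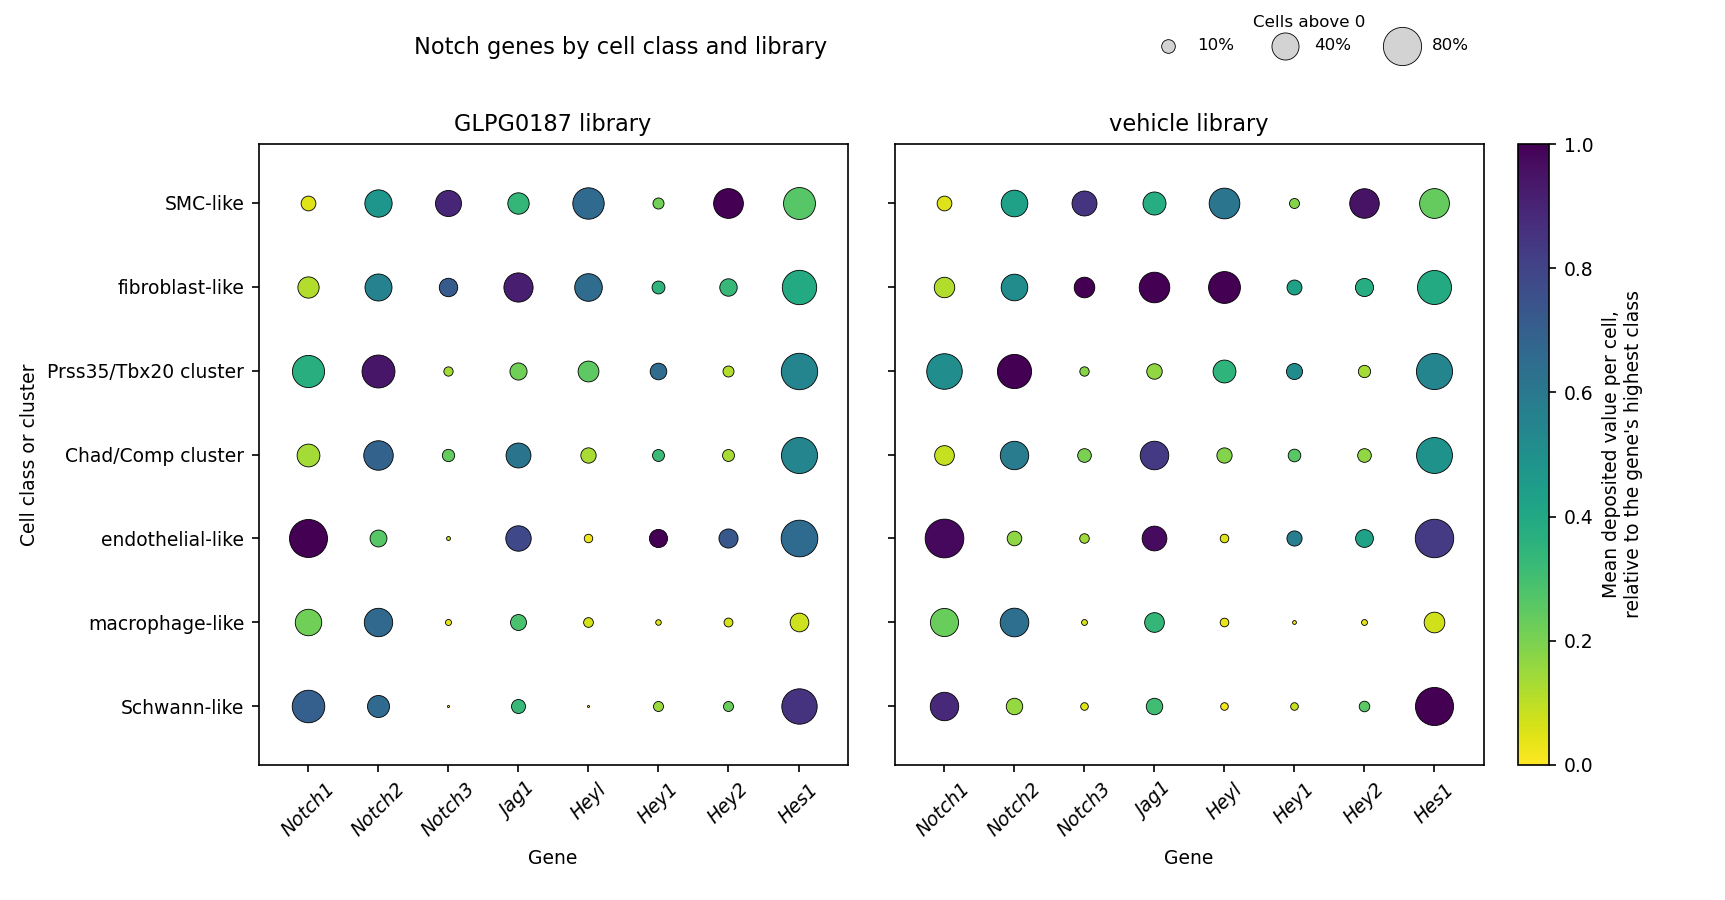
Levels of the 8 Notch genes (columns) in 7 cell classes or clusters (rows), with the GLPG0187 library on the left and the vehicle library on the right. Dot size is the percentage of cells above 0 and colour is the mean deposited value relative to the highest class of that gene over both libraries; Notch1 peaked in endothelial-like cells, and Notch3, Heyl and Hey2 were near 0 in macrophage-like cells.

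The libraries were then compared within each class, to ask whether inhibition of integrin av went with a change of the Notch genes. Sums were divided by the total of the class, and a log2 ratio of GLPG0187 over vehicle was taken for genes whose sums reached 100. In SMC-like cells 0 of the 8 genes were at least 1.5-fold apart in either direction, where 3.12% of the 10740 genes measured were. Their log2 ratios lay between -0.18 (Jag1) and 0.19 (Hey1), with a median of 0.10, against -0.05 over all genes measured. A count of 0 among 8 does not set these genes apart from all genes measured. The ratios of the whole class also pool clusters in unlike shares, and Hes1 had 0.73 in cluster 1 of the class, as described below.

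**Figure D2:**
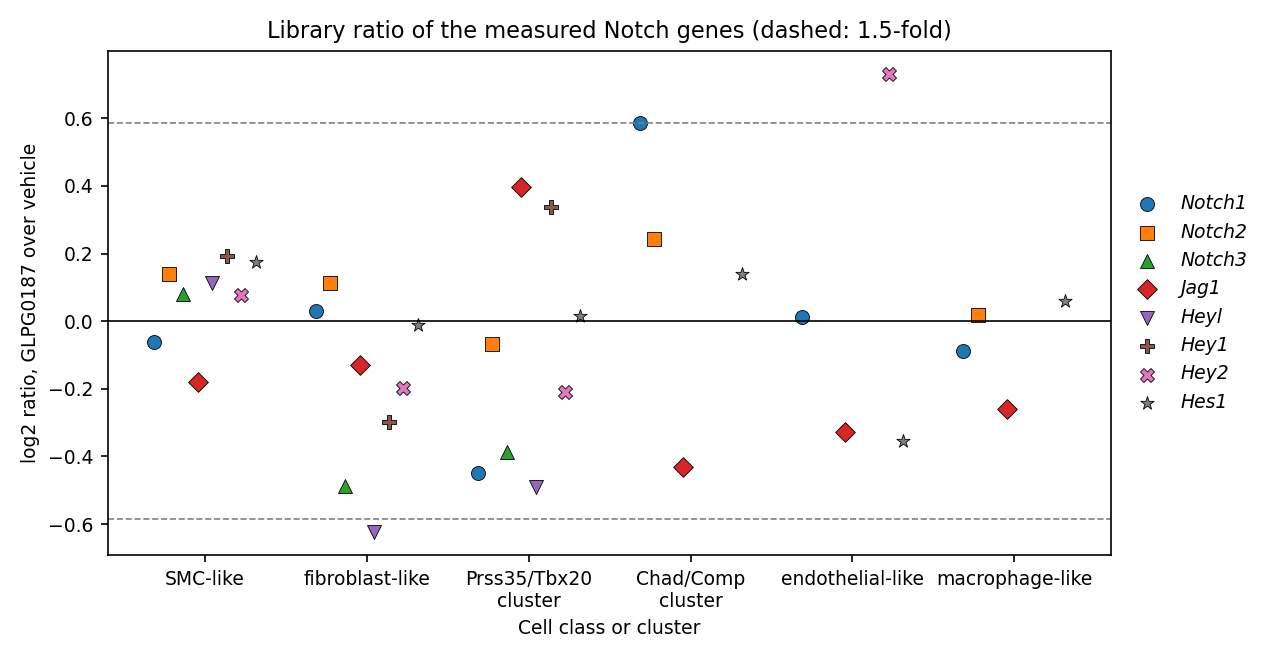
Log2 ratio of GLPG0187 over vehicle (y axis) for each Notch gene with a summed value of at least 100, by cell class or cluster (x axis). Dashed lines mark 1.5-fold; Heyl in fibroblast-like cells lies below the lower line (-0.62), Hey2 in endothelial-like cells lies above the upper one (0.73), and Notch1 in the Chad/Comp cluster lies on it (0.59).

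Within SMC-like cells, Hes1 differed more than the whole class showed. The class held 2 clusters, and in cluster 1, which was led by Mylk4, Acta2, Myh11 and Cnn1, Hes1 had a level of 1.12 with GLPG0187 (48.5%, 45.5 to 51.5) and 0.679 with vehicle (33.3%, 28.8 to 38.1). This is a log2 ratio of 0.73, past 1.5-fold. In cluster 3, led by Tnnt2 and Igfbp2 beside Tagln and Acta2, the levels were 2.78 (69.7%) and 2.29 (63.3%), with a log2 ratio of 0.29. Both clusters had higher Hes1 with GLPG0187, and the ratio for the whole class was 0.17, lower than either. The finer sub-clusters were not alike. Of the 5 SMC-like sub-clusters with cells of both libraries, 3 had the higher Hes1 mean with GLPG0187 and 2 the lower. Hes1 was higher in the sub-cluster led by Hspa1a, at 1.02 against 0.477 with vehicle (log2 ratio 1.10), and in that led by Rgs5 and Osr2, at 2.15 in 87 cells against 0.167 in 12. It was nearly level in the sub-cluster led by Sema3e, at 1.11 with GLPG0187 and 1.14 with vehicle (-0.04). The clusters made up different shares of the class, with 1104 cells in cluster 1 and 568 in cluster 3 for GLPG0187, and 414 and 425 for vehicle.

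Immediate early genes were also higher with GLPG0187 in cluster 1, and their part in the Hes1 difference was not tested. The summed level of Fos, Jun, Egr1, Atf3 and Ier2, which stress and tissue digestion are known to induce, was 29.0 per cell in cluster 1 given GLPG0187 and 22.5 in that given vehicle. Among cells of cluster 1 with a sum of these 5 genes under 10, the Hes1 share was 40.3% in 387 GLPG0187 cells (35.4 to 45.4) and 41.0% in 134 vehicle cells (32.6 to 49.9). Among cells with a sum of 30 or more it was 59.5% in 393 GLPG0187 cells (54.5 to 64.4) and 30.9% in 110 vehicle cells (22.4 to 40.4). From 10 to under 30 it was 44.8% in 324 GLPG0187 cells and 28.8% in 170 vehicle cells, so the Hes1 difference was seen at sums of 10 or more and not under 10. In cluster 3 the Hes1 shares under 10 were 59.5% with GLPG0187 and 58.0% with vehicle. At 30 or more they were 79.2% and 75.9%. With vehicle, the share was thus higher at 30 or more than under 10 in cluster 3 but not in cluster 1. In cells with Xist and no Y-linked transcript, cluster 1 had Hes1 levels of 0.690 (36.6% of 303 cells) with GLPG0187 and 0.519 (28.9% of 135 cells) with vehicle. In cells with a Y-linked transcript and no Xist the levels were 1.33 (54.5% of 725 cells) and 0.739 (36% of 253 cells). Both kinds of cell had the higher level with GLPG0187. The log2 ratio was 0.42 with Xist, short of 1.5-fold and with overlapping intervals of the shares, and 0.85 with a Y-linked transcript.

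Modulated SMC-like cells were described apart from the other SMC-like cells, since loss of the contractile state is known in Marfan aneurysm. They were 2 sub-clusters with raised modulated SMC markers and lower Myh11, found by a separate clustering that again left out the Notch genes. They made up 24.0% of SMC-like cells with GLPG0187 (401 cells, 22.0 to 26.1) and 40.8% with vehicle (342 cells, 37.4 to 44.2). Hes1 had a level of 3.43 in modulated and 1.13 in other SMC-like cells given GLPG0187, and of 2.57 and 0.761 in those given vehicle. These are log2 ratios of modulated over other cells of 1.63 and 1.78. The sub-clusters differed in Hes1, as described below. The extent of the group depended on the treatment of doublets. With called doublets kept, only the smaller sub-cluster met the rule, with 3.31% of SMC-like cells given GLPG0187 and 16.1% of those given vehicle.

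Receptors and ligand differed in the same comparison. Notch3 had levels of 0.840 in modulated and 0.432 in other cells with GLPG0187, and 0.673 and 0.384 with vehicle, giving log2 ratios of 0.99 and 0.83. Jag1 had log2 ratios of 1.22 and 1.0, Notch1 of 1.21 and 1.08, and Hey1 of 1.28 and 1.20, the GLPG0187 library first. Heyl was higher by 0.55 and 0.37 on the log2 scale. Notch2, at -0.06 and -0.12, differed little, and Hey2 had 0.01 with GLPG0187 and -0.50 with vehicle. For 7 of the 8 genes the sign was the same in both libraries, the exception being Hey2. The summed immediate early level was also higher in modulated cells, at 55.7 against 29.5 in other cells given GLPG0187 and 34.6 against 23.5 in those given vehicle, and so was the summed level of the fibroblast markers, at 54.1 against 13.0 and 46.3 against 11.9. The part of either in these differences was not tested. Dcn and Lum are in both the fibroblast and the modulated SMC marker lists, so the fibroblast sum is not independent of the naming rule. With called doublets kept, the log2 ratios of Notch3 were -0.15 with GLPG0187 and 0.10 with vehicle and those of Heyl -0.39 and -0.22, whereas Hes1 (0.57 and 0.91), Jag1 (1.03 and 0.75) and Notch1 (0.90 and 1.09) stayed positive.

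The modulated sub-clusters were unlike each other. The first, led by Lum, Dcn and Apoe, had 350 cells with GLPG0187 and 216 with vehicle. The second, led by Timp1, Fetub and Ttc9 and with Vcam1 among its 10 leading genes, had 51 and 126. Against all other SMC-like cells, Heyl in the first had log2 ratios of 0.69 and 0.79, while in the second it had -0.83 and -0.68. Notch3 followed the same split, with 1.11 and 1.08 in the first and -0.39 and -0.22 in the second. Notch1 was higher in both, with 1.16 and 0.50 in the first and 0.88 and 1.09 in the second. Jag1 was higher in both too, with 1.16 and 0.90 in the first and 0.89 and 0.42 in the second. Hes1 had 1.73 and 1.73 in the first but -0.22 and 0.22 in the second. The higher Hes1 of modulated cells thus lay in the first. Hey1 had 1.44 and 1.36 in the first and -0.38 and 0.11 in the second, where its summed values were 2 and 8.

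Within modulated cells, 7 genes were measured between the libraries and 0 were 1.5-fold apart, where 4.1% of all 8455 genes measured were. Their log2 ratios of GLPG0187 over vehicle ran from 0.13 to 0.43, all positive. In the Lum-led sub-cluster (350 GLPG0187 and 216 vehicle cells) the same 7 genes ran from 0.03 (Jag1) to 0.41 (Notch1). In the Timp1-led one (51 and 126 cells) only Heyl and Hes1 were measured, and both were negative. Heyl had 0.30 in all modulated cells, 0.09 in the Lum-led and -0.10 in the Timp1-led sub-cluster. For Hes1 these were 0.43, 0.28 and -0.22. The part of the unlike mix of sub-clusters in the ratios was not tested. Within other SMC-like cells 0 of 7 were 1.5-fold apart (2.17% of 10049 genes), and Hes1, at 0.58, was the nearest to that size. A sub-cluster of 32 SMC-like cells was found only with vehicle, and another, of 99 cells led by Rgs5 and Osr2, had 87 cells from GLPG0187 and 12 from vehicle.

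**Figure D3:**
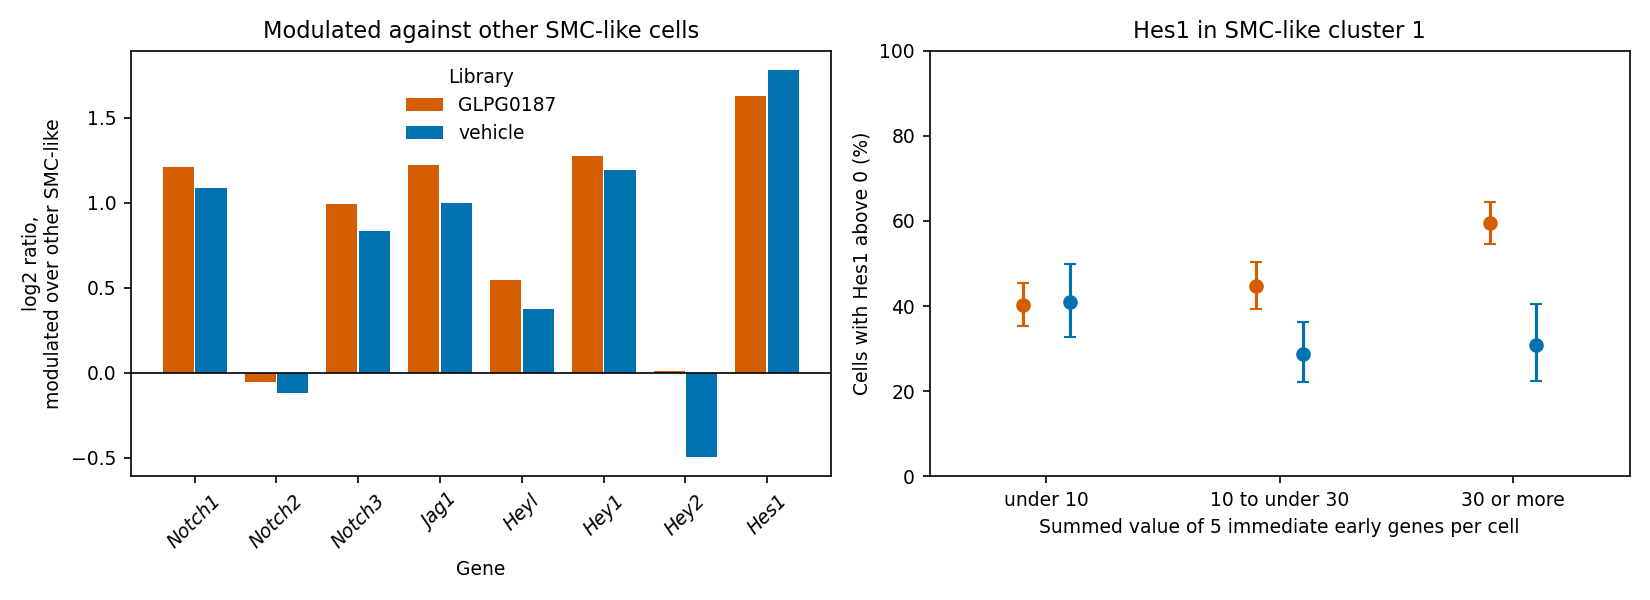
Left, log2 ratio of modulated over other SMC-like cells (y axis) for each Notch gene in the GLPG0187 and the vehicle library; bars are the ratio of means within 1 library, positive for 6 genes in both. Right, percentage of cells with Hes1 above 0 in SMC-like cluster 1 by the summed value of 5 immediate early genes, with 95% exact intervals; the libraries overlap under 10 (40.3% and 41.0%) and separate at 30 or more (59.5% and 30.9%).

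In fibroblast-like cells the ratios differed more. Of the 8 genes 1, Heyl, was at least 1.5-fold apart, where 3.79% of the 10208 genes measured were, and the median log2 ratio was -0.16 against -0.03 over all genes. Heyl had a level of 0.942 with GLPG0187 (41.6%, 38.6 to 44.6) and 1.45 with vehicle (55.4%, 52.0 to 58.7), a log2 ratio of -0.62. The intervals of the shares did not overlap, and the median number of genes detected was alike in both libraries, at 3392 and 3382. Notch3 had a log2 ratio of -0.49, short of 1.5-fold, though it was -0.96 in cells with Xist and no Y-linked transcript, -0.31 in cells with a Y-linked transcript and no Xist, and -0.60 when the Notch genes were allowed in the clustering. Notch1, Notch2 and Hes1 lay between -0.01 and 0.11.

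The Heyl mean was lower with GLPG0187 in all 6 fibroblast-like sub-clusters, of which 4 reached a summed value of 100 and 1 of these was 1.5-fold apart. In the sub-cluster led by Sfrp2, Hhip and F3 the levels were 0.989 (42.1%) in 278 GLPG0187 cells and 1.45 (54.4%) in 353 vehicle cells. In that led by Ptx3 and Ifi205 they were 0.667 (34.1%) in 276 and 1.09 (47.6%) in 212 cells, and in that led by Il6 and Nr4a2 1.33 (55.9%) in 272 and 1.95 (68.2%) in 129 cells. The sub-cluster led by Tnnt2 and Fhl2 had 1.31 (52.7%) in 93 and 1.75 (70.2%) in 104 cells. Below that sum, the sub-cluster led by Dner had levels of 0.0909 (7.95%) in 88 and 0.323 (9.68%) in 31 cells, and that led by Rgs5 had 0.881 (40.5%) in 42 and 1.76 (62.1%) in 29 cells. The same direction held with Xist and no Y-linked transcript, at 0.880 (37.7% of 334 cells) with GLPG0187 and 1.28 (52.5% of 303 cells) with vehicle, and with a Y-linked transcript and no Xist, at 0.966 (45.7% of 554 cells) and 1.59 (58.0% of 448 cells). The log2 ratios of these subsets were -0.55, short of 1.5-fold, and -0.73. The summed immediate early level was 76.8 with GLPG0187 and 63.6 with vehicle, and its part in the Heyl difference was not tested.

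The Notch3 difference in fibroblast-like cells was uneven over the sub-clusters, of which 5 were measured and 2 were 1.5-fold lower with GLPG0187. The sub-cluster led by Rgs5 and the interferon-induced genes Ifit3 and Ifit3b had Notch3 levels of 1.79 (42.9% of 42 cells) with GLPG0187 and 4.14 (72.4% of 29 cells) with vehicle. Its log2 ratio was -1.24. The sub-cluster led by Ptx3 and Ifi205 had -0.77 and that led by Sfrp2 had -0.45, while that led by Il6 had 0.04 and that led by Tnnt2 had -0.10. Without cells of at least 4 pericyte markers, the class had Notch3 levels of 0.402 with GLPG0187 and 0.542 with vehicle. In the Rgs5-led sub-cluster the summed pericyte markers were 10.6 with GLPG0187 and 21.5 with vehicle, and the summed SMC markers 173 and 115. Their part in the Notch3 ratio was not tested. Cells with a Notch3 value of at least 5, a limit set after the values were seen, numbered 19 of 1049 fibroblast-like cells with GLPG0187 and 28 of 858 with vehicle. They held 35.2% and 44.8% of all Notch3 of the class. A small number of cells thus carried a large part of the class's Notch3.

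Of the 6 pericyte markers, 3 (Rgs5, Higd1b and Vtn) were higher in those Notch3-rich cells in both libraries, and 2 (Abcc9 and Cspg4) were lower in both. Rgs5 had a level of 7.32 in the fibroblast-like cells with Notch3 of at least 5 and 1.05 in those with 1 to 4 with GLPG0187, and of 15 and 0.412 with vehicle. Higd1b had 0.316 and 0.00571 with GLPG0187 and 0.643 and 0.0353 with vehicle. Kcnj8 did not follow with vehicle, where it was 0.679 in the rich cells and 1.53 in the others, against 1.42 and 1.31 with GLPG0187. No cluster was named for pericytes. Cells with at least 4 of the 6 pericyte markers numbered 71 with GLPG0187 and 44 with vehicle over all classes, with Notch3 levels of 1.08 (33.8%) and 2.16 (43.2%). SMC-like cells made up 41 of the 71 and 21 of the 44. In the whole SMC-like class, 37.0% and 34.0% of cells had Notch3. Cells with none of the 6 had 0.0579 (3.77%) and 0.156 (7.60%). Many of these were of classes low in Notch3, with 277 macrophage-like and 121 endothelial-like among 743 cells with GLPG0187 and 154 and 75 among 513 with vehicle. Their median number of genes detected was 3284 and 3216, against 4169 and 4106 in cells with at least 4 markers.

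**Figure D4:**
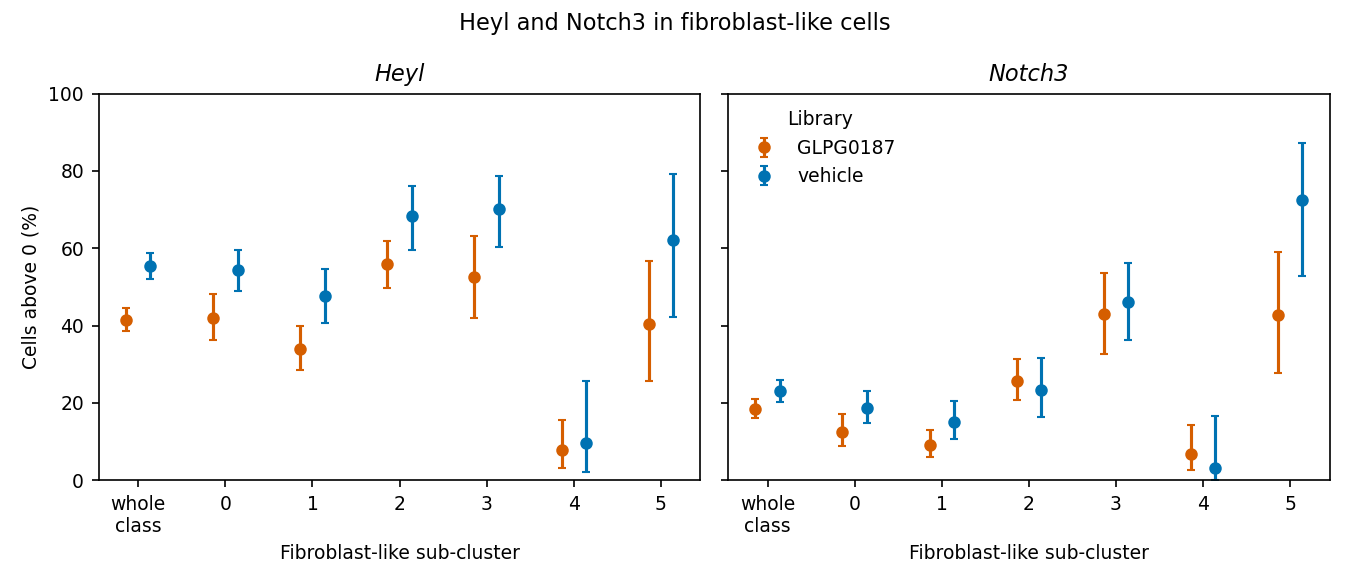
Percentage of cells with Heyl (left) and Notch3 (right) above 0 in the whole fibroblast-like class and its 6 sub-clusters, numbered 0 to 5, for the GLPG0187 and the vehicle library; bars are exact 95% intervals for counting error. Heyl was lower with GLPG0187 in each sub-cluster, and Notch3 was furthest apart in sub-cluster 5 (42.9% and 72.4%).

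Endothelial-like cells held 4 measured genes, of which 1, Hey2, was past 1.5-fold, where 8.82% of 4921 genes measured were. Hey2 had a level of 0.506 (19.8%, 13.9 to 26.7) with GLPG0187 and 0.295 (17.1%, 10.5 to 25.7) with vehicle, a log2 ratio of 0.73. With 10 added to each sum it was 0.52, short of 1.5-fold, and the intervals of the shares overlapped. Notch1 was level at 0.01, while Jag1 had -0.33 and Hes1 -0.36.

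The class was made of 1 lymphatic sub-cluster, which had all 6 lymphatic markers, and 2 of blood vessel type, and the Notch genes differed between these in both libraries. Notch1 was found in 75 to 90.9% of cells in every sub-cluster. The blood vessel sub-cluster led by Klk10, Gkn3 and Gja5 (38 GLPG0187 and 22 vehicle cells) had Hey2 levels of 1.45 (57.9%) and 1.0 (50%) and Jag1 levels of 1.47 (60.5%) and 2.36 (59.1%). In the lymphatic sub-cluster (100 and 58 cells) Hey2 was 0.260 (9.0%) and 0.103 (8.62%) and Jag1 was 0.50 (28.0%) and 0.638 (29.3%). The sub-cluster led by Rgcc and Rgs5 and with Cd36 among its leading genes (24 and 25 cells) had Hey2 levels of 0.0417 (4.17%) and 0.120 (8.0%). Hey2 and Jag1 were thus concentrated in the Gkn3/Gja5 sub-cluster. Hes1 ran the other way, with its lowest levels there, at 2.00 and 2.23, and its highest in the Rgcc/Cd36 sub-cluster, at 5.63 and 7.20. The summed immediate early level was 80.2 and 72.1 in the Rgcc/Cd36 sub-cluster and 19.2 and 33.2 in the Gkn3/Gja5 sub-cluster, and the summed pericyte markers were 7.92 and 12.4 against 0.132 and 0.50. Their part in the Hes1 levels was not tested.

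The other ligands were also unevenly spread over the endothelial-like sub-clusters. Dll1 was found in 63.2% of Gkn3/Gja5 cells with GLPG0187 and 68.2% with vehicle, and in 35.0% and 32.8% of lymphatic cells. Dll4, a ligand known from capillaries and sprouting vessels, was found in 41.7% and 60.0% of Rgcc/Cd36 cells and in 17.0% and 12.1% of lymphatic cells. Jag2 was highest in the Rgcc/Cd36 sub-cluster too, in 41.7% and 44.0% of cells, against 4.0% and 5.17% of lymphatic cells. Notch4, a receptor known from endothelium, was in 31.6% and 27.3% of Gkn3/Gja5 cells, in 33.3% and 32.0% of Rgcc/Cd36 cells and in 2.00% and 8.62% of lymphatic cells.

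**Figure D5:**
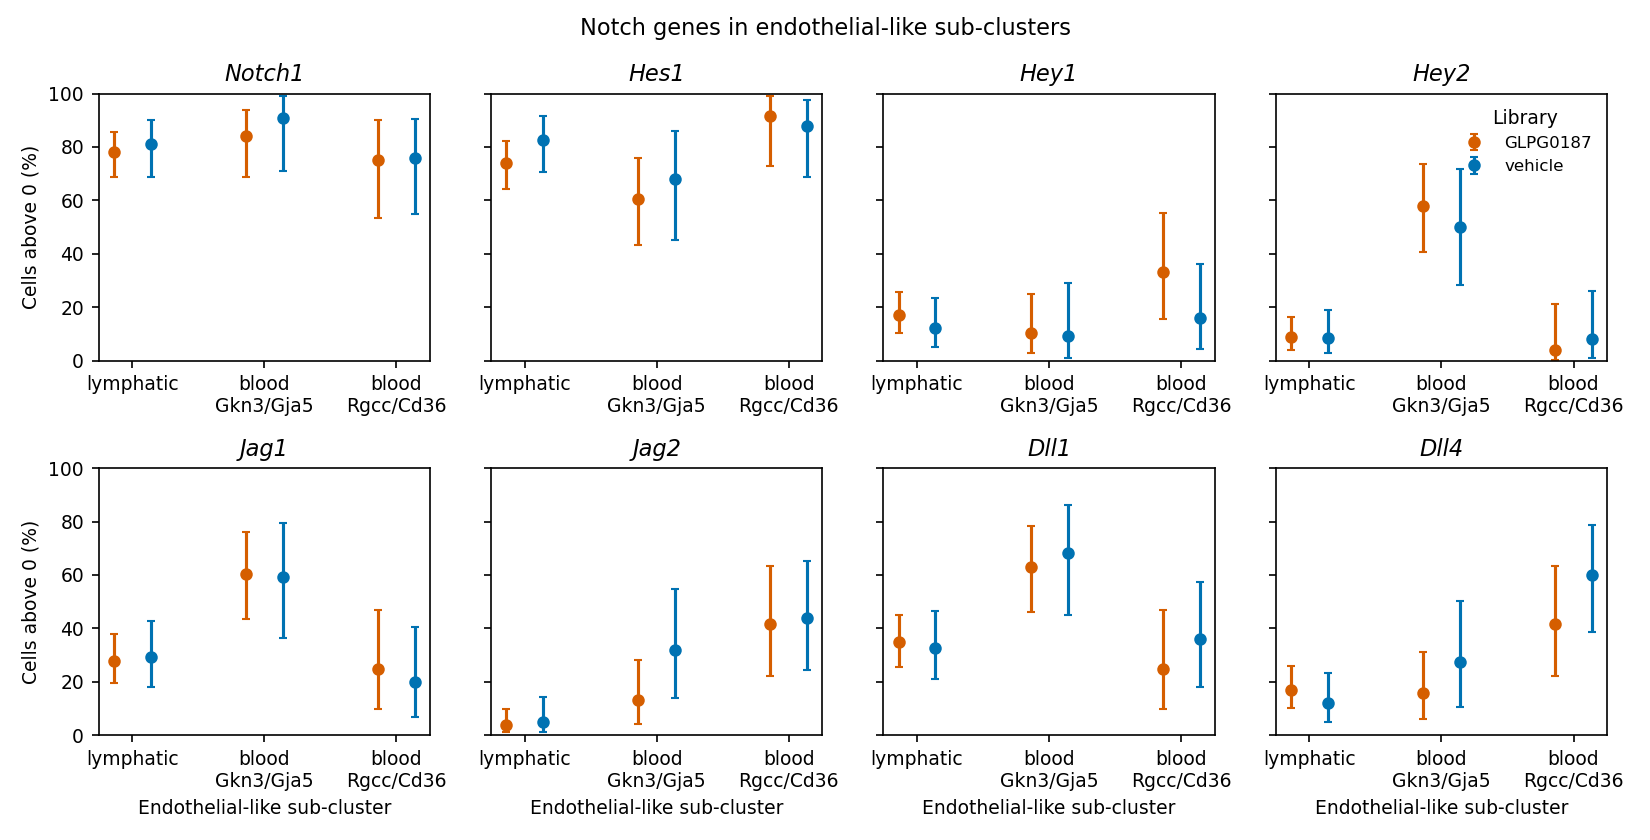
Percentage of cells above 0 (y axis) for Notch1, Hes1, Hey1, Hey2, Jag1, Jag2, Dll1 and Dll4 in 3 endothelial-like sub-clusters, for the GLPG0187 and the vehicle library, with exact 95% intervals for counting error. Hey2, Jag1 and Dll1 were highest in the Gkn3/Gja5 sub-cluster and Jag2 and Dll4 in the Rgcc/Cd36 sub-cluster in both libraries.

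In the Prss35/Tbx20 cluster 0 of 8 genes were 1.5-fold apart (2.91% of all genes measured). Its largest differences were Heyl at -0.49, with levels of 0.357 with GLPG0187 and 0.506 with vehicle, and Notch1 at -0.45. The intervals of the Notch1 shares, 56.5% with GLPG0187 (53.1 to 59.7) and 69.1% with vehicle (65.6 to 72.4), did not overlap. The median number of genes detected in this cluster was 3836 and 4039, and its part in the share was not tested. The Notch1 share was lower with GLPG0187 among cells with Xist and no Y-linked transcript, at 57.8% against 67.4% with vehicle. Among cells with a Y-linked transcript and no Xist it was 58.1% against 71.3%. Heyl was lower with GLPG0187 here, as in fibroblast-like cells, and 5 of the 8 genes had a negative ratio. One of the 5, Notch3, turned to 0.20 when the highest cell of each library was left out, since 1 vehicle cell had a value of 31.

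In the Chad/Comp cluster 1 of 4 measured genes, Notch1, was past 1.5-fold (4.74% of all genes), with levels of 0.384 (28.3%, 22.1 to 35.1) with GLPG0187 and 0.255 (21.0%, 15.6 to 27.3) with vehicle. Its log2 ratio of 0.59 lay at the limit and the intervals of the shares overlapped. In macrophage-like cells 0 of 4 were past it (9.75%), and in Schwann-like cells 0 of 2 (11.7%). No member reached a summed value of 100 in dendritic-like cells, where 16.8% of measured genes were 1.5-fold apart. There Notch2 was above 0 in 13 of 17 GLPG0187 cells and 3 of 9 vehicle cells.

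Detection in the same cells was described next. A receptor was above 0 in 66.6% of SMC-like cells with GLPG0187 and 64.1% with vehicle, and Jag1 with a receptor in 19.0% and 19.7%. In fibroblast-like cells a receptor was above 0 in 62.2% and 59.4%, and Jag1 with a receptor in 32.8% and 32.9%. At least 1 of Heyl, Hey1 and Hey2 was found in 76.9% and 74.5% of the SMC-like class, and in 52.8% and 64.8% of the fibroblast-like class. The SMC-like shares of both libraries were close, and the fibroblast-like share was lower with GLPG0187.

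Heyl was more often found where Notch3 was. In fibroblast-like cells given GLPG0187, 58.8% of the 194 cells with Notch3 (51.5 to 65.8) and 37.7% of the 855 without (34.4 to 41.0) had Heyl. In the vehicle library these shares were 68.7% of 198 cells (61.7 to 75.1) and 51.4% of 660 cells (47.5 to 55.2). Cells with Notch3 also had more genes detected, with medians of 3619 and 3339 with GLPG0187 and 3608 and 3310 with vehicle, and the part of this in the shares was not tested. In SMC-like cells the same shares were 60.5% and 49.9% with GLPG0187, and 54.4% and 49.8% with vehicle, where the intervals overlapped. The pattern was not particular to Notch3. In fibroblast-like cells with and without Jag1, Heyl was found in 50.6% and 33.7% with GLPG0187, and in 61.4% and 49.0% with vehicle. In SMC-like cells these shares were 63.6% and 50.6%, and 60.3% and 47.7%. Cells with Jag1 also had more genes detected, and the part of this was not tested. Cells at 0 are not shown to lack the transcript at this depth.

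Of 66 other genes of the pathway, 64 were in the libraries. In SMC-like cells 44 were measured, of which 0 were 1.5-fold higher, 1 was lower and 43 lay between. The lower one was Ccnd1, which encodes cyclin D1, at 0.117 (5.92%) with GLPG0187 and 0.217 (9.65%) with vehicle, a log2 ratio of -0.88. No such gene was left when modulated cells were left out. Levels with GLPG0187 and vehicle were 3.46 and 3.33 for the corepressor Ncor1, and 2.12 and 2.16 for Psenen, a subunit of the gamma-secretase that cuts the receptor. Rbpj had 1.56 and 1.66 and Mfap5 had 2.52 and 2.44. The median log2 ratio of the 44 was -0.06. Rbpj was above 0 in 73.3% of the class with GLPG0187 and 73.9% with vehicle.

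In fibroblast-like cells 46 of the 64 were measured, with 2 higher, 0 lower and 44 between. This is 4.35% of them, near the 3.79% of all genes measured there. Myc, a known target, had levels of 0.403 (19.0%) with GLPG0187 and 0.191 (10.5%) with vehicle, a log2 ratio of 1.06. Dner, a non-canonical ligand, had 0.122 (4.19%) and 0.0408 (2.21%), a log2 ratio of 1.54 in few cells. The sub-cluster that Dner led held 8.39% of fibroblast-like cells with GLPG0187 and 3.61% with vehicle. Mfap5, a microfibril protein known to bind Notch ligands, had levels of 9.72 and 9.23. In endothelial-like cells 37 were measured, with 3 higher (Mfap2 at 1.13, Dtx3l at 0.99 and Aph1a, a gamma-secretase subunit, at 0.59 on the log2 scale) and 2 lower. The lower ones were Lfng, a glycosyltransferase that modifies Notch receptors, at -1.0, and Furin, the protease that matures them, at -0.69. The 5 genes are 13.5% of those measured, where 8.82% of all genes were apart. The summed fibroblast markers in endothelial-like cells were 30.9 with GLPG0187 and 16.7 with vehicle, and their part in the difference of Mfap2, a microfibril gene, was not tested. Lfng had levels of 0.284 (21.0%) with GLPG0187 and 0.562 (27.6%) with vehicle.

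The genes whose levels across clusters were most like each member were found over the 9 clusters with at least 20 cells in each library and 9626 genes. For Notch3 the closest was Plekhh2, with a Pearson r of 0.96 with GLPG0187 and 0.92 with vehicle, followed by Col15a1 and Lrrc17. For Heyl it was Rgs17 (0.95 and 0.94), with Olfr1034 and Pygb next, and for Hey2 it was Eln, which encodes elastin (0.89 and 0.94), with mt-Nd4l and Napepld next. For Notch1 it was Elk3 (0.96 and 0.94), followed by Icam2 and Gbp9, and for Notch2 Dse (0.92 and 0.97), followed by St7 and Emp3. For Jag1 it was Ephx2 (0.86 and 0.83), with Ptch1 and Tmem158 next. Hey1 was closest to Trim56 (0.94 and 0.95), with Plcg1 and Vamp5 next, and Hes1 to Ptprg (0.93 and 0.94), with Gng11 and Inpp1 next. Within the set, Hes1 and Hey1 were alike at 0.90 and 0.94, and Heyl and Notch1 were opposed at -0.83 and -0.68. These values describe 9 points that share their libraries and cell isolation.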

How the data were processed

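Single-cell RNA was measured in 2 libraries, 1 per treatment, prepared with the 10x Genomics 3' chemistry per the labels' protocols. The authors deposited whole numbers per gene and cell, treated here as a depth-corrected score, since the totals of single cells spanned only 12078 to 16719 (coefficients of variation 5.69% with GLPG0187, 5.81% with vehicle). They were not taken as molecule counts, so no count model was used. The raw depth is unknown, and cells that differ in RNA content cannot be told from these totals. The submitters' processing notes list Cell Ranger, Seurat and mm10 with no version; the cell and gene filters are not given in the sources used here.

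A filter of 200 genes and 20% mitochondrial values removed 0 cells. Scrublet in scanpy 1.11.5 called 46 (1.05%) and 14 (0.473%) doublets, which were removed; some may remain. After scaling each cell to 10000 and a log transform, 2000 variable genes without the Notch genes were reduced to 30 principal components, and a graph of 20 neighbours was clustered by Leiden at resolution 0.5 (igraph 0.11.9, scikit-learn 1.9.0, scipy 1.17.1, numpy 2.4.6, pandas 2.3.3, Python 3.11.15, matplotlib 3.10.9). Class names needed at least 3 and 75% of the fixed markers detected in 25% of the cluster and at over 3 times the median cluster. No other class could have more of its markers among the 10 leading genes. Modulated sub-clusters had 50% of the 10 modulated SMC markers at least 1.5-fold above other SMC-like cells and lower Myh11. The naming thresholds were set with the data in view.

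Per class, values were summed, 1 was added, the sum was divided by the class total, and the ratio of GLPG0187 over vehicle was put on the log2 scale for genes with sums of at least 100 over both libraries. Shares carry exact Clopper-Pearson 95% intervals. The ratio was tested on simulated data. No p-value was computed. The members, gene lists, markers and naming rule were chosen with earlier results of these data known. All 8 members were named, with other pathway genes by level, by detection of receptors and ligands in over 5% of cells, or by a 1.5-fold difference, and the 3 genes most like each member by the lower of both libraries' Pearson r of log2(mean + 0.01). Alternatives were other clusterings, scalings, filters and subsets of cells. Protein sequences were not used here.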

Additional observations from a re-analysis of the deposited data

How the results depend on the processing

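The count of 0 Notch genes 1.5-fold apart in SMC-like cells was the same under all alternatives run, a lower fold limit included. The median log2 ratio of the 8 genes in these cells (0.10) moved to -0.092 in cells with Xist and no Y-linked transcript, the other sign, and lay between 0.07 and 0.14 otherwise. The count of other pathway genes 1.5-fold apart (1) was 0 in Xist-only cells and 0 without modulated SMC-like cells, 2 in cells with a Y-linked transcript only and 2 at the lower fold limit, and 9 with no filter on low values; the cause was not tested. The number of genes with the same highest class in both libraries (6) was 6 or 7, and that of genes with the same sign in modulated cells of both libraries (7) was 6 to 8. Of 256 ratios of single genes under the alternatives, 239 stayed within 0.2 log2 of the value reported and 17 did not, and no ratio that was 1.5-fold apart changed sign. Leaving out cells with at least 4 pericyte markers, or the sub-cluster found only in the vehicle library, was chosen after seeing the data. No paired analysis was possible because each group has 1 library. With no replicate library, differences between animals, pools and treatments cannot be told apart, and genes detected in few cells, such as Hey1, carry wide intervals.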

Other observations

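Hes1 in fibroblast-like cells stood in opposite directions by the sex-linked transcripts of the cells. With Xist and no Y-linked transcript its level was 2.94 (68.6% of 334 cells) in the GLPG0187 library and 2.11 (60.7% of 303 cells) in the vehicle library, a log2 ratio of 0.48. With a Y-linked transcript and no Xist it was 2.31 (61.2% of 554 cells) and 2.77 (65.6% of 448 cells), a log2 ratio of -0.27. The difference between these subsets was not tested, and each holds cells of 1 pool per treatment.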
